A study of Mus musculus with 16 samples.

Results

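The cytokine genes Il6, Il10, Tnf, Lta, Ltb, Csf1, Ebi3 and Il12a were followed through the response of autoreactive mouse B cells to an antibody against chromatin. The members were selected by gene name as inflammatory cytokines and lymphotoxins, with their measured log2 ratios over time on these arrays already in view. Their changes from 0 h are therefore a description, and where a count of them past a threshold is printed, nothing is read from it. The genotype comparisons use the same stimulated arrays, so their p-values are not independent of the choice of genes. They make 8 of 34741 gene names on the array, and 48 of its 59305 spots that are not controls. These 48 spots carry 11 probes, of which 4 belong to Csf1 and 1 to each of the other genes.

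Splenic B cells of the AM14 strain were used, whose antigen receptor recognises IgG itself. The 4 genotypes were WT, Tlr7-/- (Tlr7 knockout), Tlr9-/- (Tlr9 knockout) and Tlr7/9-/- (double knockout), and every one of them carried the AM14 receptor. PL2-3, a monoclonal antibody of the IgG class that binds chromatin, was added for 6, 24 or 42 h, and unstimulated cells served as 0 h. TLR7 is an endosomal receptor for RNA and TLR9 one for DNA, and the series asked what each adds to the response of such a B cell. Each of the 16 combinations was read on 1 array, with the sample in Cy5 and, in Cy3, a reference pooled from the unstimulated B cells of the 4 genotypes. The labels give neither the age and sex of the mice, nor how many mice an RNA came from, nor the dose of PL2-3.

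Activated B cells secrete cytokines as well as antibody. Interleukin-6 promotes plasma cell survival and T cell help, and interleukin-10 restrains inflammation. Tumour necrosis factor and lymphotoxin-alpha bind the same pair of receptors, and lymphotoxin-alpha also joins membrane-bound lymphotoxin-beta in the heterotrimer that keeps follicular stroma organised. EBI3 is the beta chain shared by interleukin-27 and interleukin-35, Il12a encodes the p35 chain that pairs with it in interleukin-35, and CSF1 is the growth factor of macrophages. Tnf, Lta and Ltb lie beside each other in the major histocompatibility complex. Signals of endosomal TLRs and of the antigen receptor both reach NF-κB, a family of transcription factors with binding sites in the promoters of many cytokine genes.

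Promoter sequence was at hand for 7 of the 8 genes (RefSeq, GRCm38.p6), all except Il10. The 250 bases before the transcription start are shown for 4 genes whose time courses took different shapes, given later: Il6 and Tnf, lowest in the double knockout, Csf1, highest there, and Ltb, low after stimulation in every genotype. Il6 lies at chr5:30012864-30013113 on the plus strand, Tnf at chr17:35202008-35202257 on the minus strand, Ltb at chr17:35194257-35194506 on the plus strand and Csf1 at chr3:107760470-107760719 on the minus strand. Each is printed from 5′ to 3′ on the gene's own strand, and capitals mark stretches that match GGGNNNNNCC on either strand, a simplified NF-κB motif.
Il6: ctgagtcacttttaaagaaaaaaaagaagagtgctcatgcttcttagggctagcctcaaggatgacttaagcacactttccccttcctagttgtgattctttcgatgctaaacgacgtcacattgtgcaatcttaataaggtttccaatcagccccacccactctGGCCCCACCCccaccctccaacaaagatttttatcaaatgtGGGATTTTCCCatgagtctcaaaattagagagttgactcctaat
Tnf: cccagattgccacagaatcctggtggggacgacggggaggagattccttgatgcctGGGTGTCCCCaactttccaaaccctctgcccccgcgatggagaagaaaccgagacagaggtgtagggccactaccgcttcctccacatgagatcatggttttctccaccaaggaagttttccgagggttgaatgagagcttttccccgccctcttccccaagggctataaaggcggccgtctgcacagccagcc
Ltb: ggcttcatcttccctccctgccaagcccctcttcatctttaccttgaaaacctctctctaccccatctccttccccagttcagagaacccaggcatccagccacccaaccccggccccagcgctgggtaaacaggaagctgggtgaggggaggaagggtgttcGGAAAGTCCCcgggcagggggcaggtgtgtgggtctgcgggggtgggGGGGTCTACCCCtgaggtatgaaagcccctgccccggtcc
Csf1: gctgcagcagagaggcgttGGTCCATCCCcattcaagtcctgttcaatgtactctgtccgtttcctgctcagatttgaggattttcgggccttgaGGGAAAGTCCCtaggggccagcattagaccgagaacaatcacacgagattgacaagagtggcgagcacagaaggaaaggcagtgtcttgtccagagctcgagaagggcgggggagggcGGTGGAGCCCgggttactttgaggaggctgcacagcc

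The match nearest to the start of Il6 was GGGATTTTCCC, from base -44 to base -34 before the start. Tnf held GGGTGTCCCC from -194 to -185, Ltb held GGAAAGTCCC from -87 to -78 and GGGGTCTACCCC from -40 to -29, and Csf1 held 3 matching stretches, among them GGGAAAGTCCC from -155 to -145. Ebi3 (chr17:55952373-55952622, plus strand) held GGGGCTTCCCC from -44 to -34, and Lta (chr17:35205352-35205601, minus strand) held GGGCCTGACCC from -76 to -66. Of the 2 Il12a start windows, 1 held a stretch. The same motif occurs in 45.8% of 32851 mouse promoter windows of this length, so holding it is common, and a match describes letters, not a bound site. The AP-1 motif TGANTCA, present in 6.75% of windows, was found 1 time, in Il6. TATAAA, present in 12.4% of windows, was found in Tnf and in Lta. None of these motifs was in Il6, Tnf and Lta alike and missing from Csf1.

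Between 37.4% and 62.7% of an array's spots stood well above background in Cy5, the lowest share being that of the Tlr9 knockout at 0 h. The genotypes with Tlr9 (WT, Tlr7 knockout) shared 1 slide and those without it shared the other, so the presence of Tlr9 and the slide cannot be told apart. Only Tlr7 knockout against WT and double knockout against Tlr9 knockout stay within a slide. Cultures without PL2-3 were not among the samples, so effects of PL2-3 and of hours in culture cannot be told apart. The brightest Tlr7 probe ranged from 0.90 to 1.49 in WT and from 0.32 to 1.71 in the Tlr9 knockout, against -0.73 to -0.02 in the Tlr7 knockout and -0.58 to 0.41 in the double knockout (log2 ratio to the pool). The Tlr9 probe had medians between -0.42 and -0.33 in all 4 genotypes and did not register the deletion. All 8 B cell markers stood above background on all 16 arrays.

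All levels below are log2 ratios of the sample to the pool, in which 0 is the level of unstimulated B cells and 1 is 2-fold above it. There are no replicate arrays. A probe printed at several spots of an array gives the technical spread within that array, and its median SD over arrays was 0.0597 for Tnf, 0.0646 for Lta and 0.0801 for Csf1 (10 spots each). At 0 h the 8 genes lay close to the pool in every genotype, between -0.23 and 0.23 except for Ltb, which ranged from 0.31 to 0.60. In bulk RNA, fewer cells expressing a gene and less RNA per cell cannot be told apart.

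**Figure D1:**
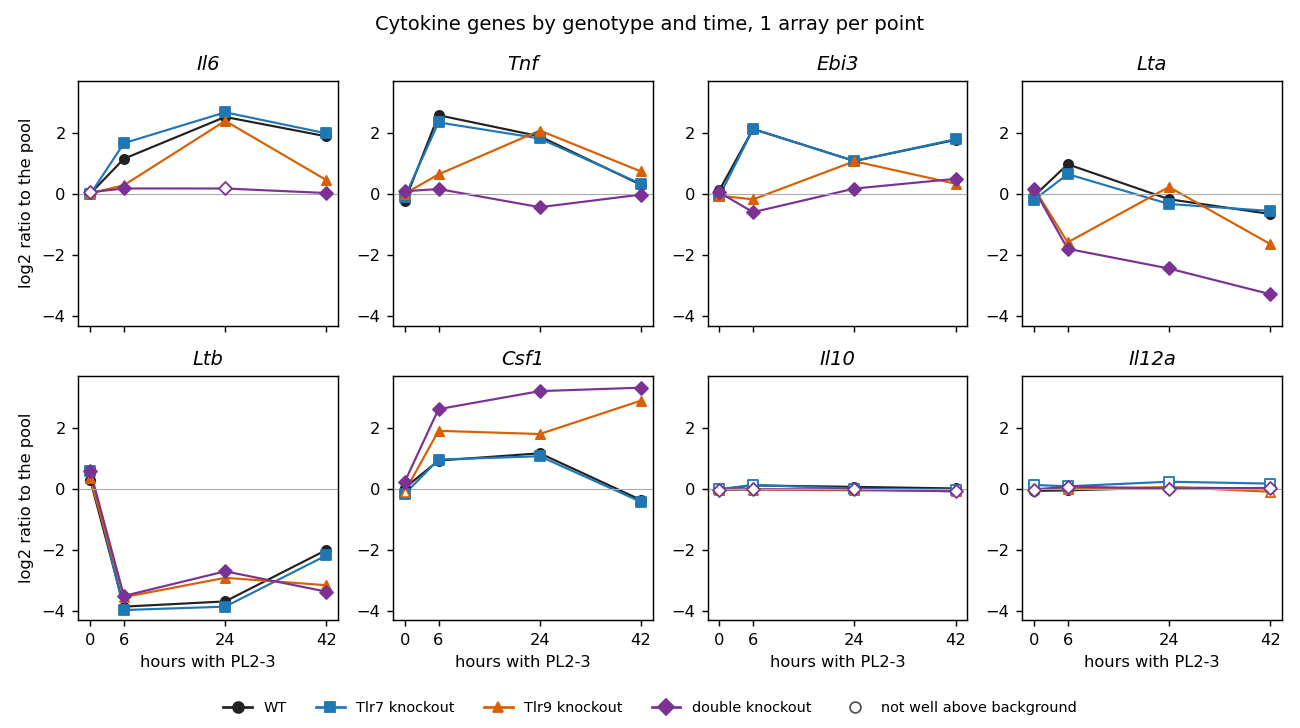
Log2 ratio of Cy5 to the Cy3 pool (y axis) against hours with PL2-3 (x axis) for the 8 genes, 1 array per point and 1 line per genotype. Open symbols mark arrays on which fewer than 0.5 of the gene's spots stood well above background. WT and Tlr7 knockout lines nearly coincide, the double knockout is lowest for Il6, Tnf and Lta at 24 and 42 h and highest for Csf1, and Il10 and Il12a stay at background.

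Il6 appeared after stimulation in each genotype that had at least 1 of the receptors. Its probe (2 spots, chr5:30346367-30346426 on mm9, plus strand) was not above background at 0 h in any genotype. WT cells read 0.01, 1.16, 2.53 and 1.89 for Il6 at 0, 6, 24 and 42 h. A like course was seen in the Tlr7 knockout, at -0.01, 1.67, 2.68 and 1.99. In the Tlr9 knockout it read 0.02, 0.29, 2.40 and 0.46, so it came close to WT at 24 h and lay well under it at 6 and 42 h. In the double knockout it read 0.06, 0.19, 0.18 and 0.04, below every other genotype at the 3 stimulated times, although at 6 h its order with the Tlr9 knockout turned with the scaling. Both spots stood above background at 6, 24 and 42 h in WT and in the Tlr7 knockout. In the Tlr9 knockout both did at 24 h, 1 of 2 did at 42 h and none at 6 h, and in the double knockout 1 of 2 did at 6 and 42 h and none at 24 h.

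Because Il6 was at background at 0 h, its folds are given as lower bounds in Cy5 alone, against the background level of the 0 h array or the probe's own 0 h signal, whichever was higher. In WT these Cy5 bounds were 2.73-fold at 6 h, 6.91-fold at 24 h and 6.06-fold at 42 h. The ratios to the pool gave less in WT, 2.21-fold, 5.7-fold and 3.67-fold. On the WT array at 42 h the pool also read higher at this probe, at 6.85 (log2 Cy3) against 6.11 at 0 h. The WT bounds therefore hold within Cy5 and are not a floor for the ratios. The corresponding bounds were 3.03, 6.06 and 3.63 in the Tlr7 knockout, and the bound was 5.19 at 24 h in the Tlr9 knockout. Feature Extraction's processed signals, which lack the offset of 50 that pulls dim spots toward 0, gave larger changes for Il6, up to 6.62 log2 units in WT at 24 h against 2.51 with the offset. Under them the double knockout also lay lowest at 24 h and 42 h, while at 6 h the difference between the double knockout and the Tlr9 knockout ranged from -0.35 to 0.05 over the scalings.

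Tnf was high at 6 or 24 h in each genotype with at least 1 receptor and stayed near its starting level in the double knockout. Its probe (chr17:35336795-35336854 on mm9, minus strand) stood above background at all 160 spots. In WT it read -0.23 at 0 h, 2.58 at 6 h, 1.89 at 24 h and 0.30 at 42 h, and in the Tlr7 knockout -0.09, 2.35, 1.82 and 0.34. From its own 0 h array this was 7.01-fold at 6 h in WT and 5.43-fold in the Tlr7 knockout, log2 changes of 2.81 and 2.44 that became 3.62 and 3.45 under median centring. The Tlr9 knockout peaked later, at 0.01, 0.65, 2.08 and 0.74, which was 1.55-fold at 6 h and 4.2-fold at 24 h. The double knockout read 0.09, 0.17, -0.43 and -0.02, and at 24 h it was at 0.697 of its own 0 h level. The spots of the double knockout at 24 h ran from -0.55 to -0.30 and those of the Tlr9 knockout from 2.04 to 2.16, so the spots of these arrays did not overlap.

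Ebi3, read by 1 spot above background on all 16 arrays (chr17:56096309-56096368 on mm9, plus strand), was high at all 3 stimulated times in WT and the Tlr7 knockout and highest at 24 h in the Tlr9 knockout. WT read 0.12, 2.13, 1.08 and 1.78 at 0, 6, 24 and 42 h, and the Tlr7 knockout -0.06, 2.12, 1.08 and 1.80. These courses differed by no more than 0.02 at the stimulated times on this scale. The Tlr9 knockout read -0.05, -0.17, 1.08 and 0.34, which met WT at 24 h. The double knockout read 0.05, -0.59, 0.18 and 0.50, so at 42 h it lay just above the Tlr9 knockout and under the other genotypes. The change of the Tlr9 knockout from 0 to 6 h had no settled sign, from -0.34 to 0.35 over the scalings. In WT the step from 24 to 42 h turned too, since under median centring the change from 0 h was 2.06 at 24 h and 1.93 at 42 h.

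Lta took different courses with and without Tlr9. Its probe (chr17:35340275-35340334 on mm9, minus strand) stood above background at all 160 spots. WT read -0.07, 0.98, -0.17 and -0.65, and the Tlr7 knockout -0.19, 0.65, -0.32 and -0.55. The Tlr9 knockout read 0.20, -1.58, 0.23 and -1.63, low at 6 and 42 h and level with WT between them. The double knockout read 0.17, -1.79, -2.43 and -3.27, and at 42 h it was at 0.0921 of its own 0 h level. Among the genotypes, the double knockout was lowest at each stimulated time, by 0.21 at 6 h and by 1.64 at 42 h from the next array. At 24 h the change from 0 h in WT, the Tlr7 knockout and the Tlr9 knockout had no settled sign over the scalings.

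Ltb, whose product partners that of Lta, took another course. Its single spot (chr17:35333097-35333156 on mm9, plus strand) was above background on all 16 arrays. WT read 0.31, -3.85, -3.68 and -2.00, the Tlr7 knockout 0.59, -3.96, -3.85 and -2.17, the Tlr9 knockout 0.34, -3.54, -2.91 and -3.15, and the double knockout 0.60, -3.50, -2.69 and -3.36. At 6 h Ltb was at between 0.0426 and 0.0678 of its own 0 h level in all 4 genotypes, the double knockout included, and over the scalings the log2 change at 6 h ran from -4.55 to -3.36. The order of the genotypes turned between 24 h, when the double knockout was highest, and 42 h, when it was lowest. At 6 and 24 h the differences among WT, the Tlr9 knockout and the double knockout changed sign with the scaling. The Tlr7 knockout stayed under WT over the scalings, by -0.11 to -0.02 at 6 h and by -0.43 to -0.08 at 24 h. At 42 h both genotypes without Tlr9 lay lower than both with it under each scaling.

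Csf1 was highest where Lta was lowest, in the double knockout. Its brightest probe (10 spots, chr3:107544333-107544392 on mm9, minus strand) read 0.04, 0.93, 1.17 and -0.36 in WT and -0.16, 0.96, 1.07 and -0.42 in the Tlr7 knockout. It read -0.09, 1.90, 1.80 and 2.89 in the Tlr9 knockout and 0.23, 2.61, 3.20 and 3.31 in the double knockout. The double knockout was highest at each stimulated time and the Tlr9 knockout second, and at 42 h both lay more than 8-fold (3 log2 units) above WT. From its own 0 h array Csf1 was 5.2-fold higher at 6 h, 7.82-fold at 24 h and 8.46-fold at 42 h in the double knockout. Over the scalings, the log2 change of the double knockout at 42 h ran from 3.08 to 3.94. In the Tlr9 knockout only 4 of 10 spots were above background at 0 h, and the ratios gave 3.99-fold at 6 h, 3.71-fold at 24 h and 7.91-fold at 42 h. In Cy5 alone, against the measured 0 h signal, the folds were 6.58, 5.5 and 14.7. This 0 h array had the smallest share of spots above background, and its part in these folds was not tested.

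**Figure D2:**
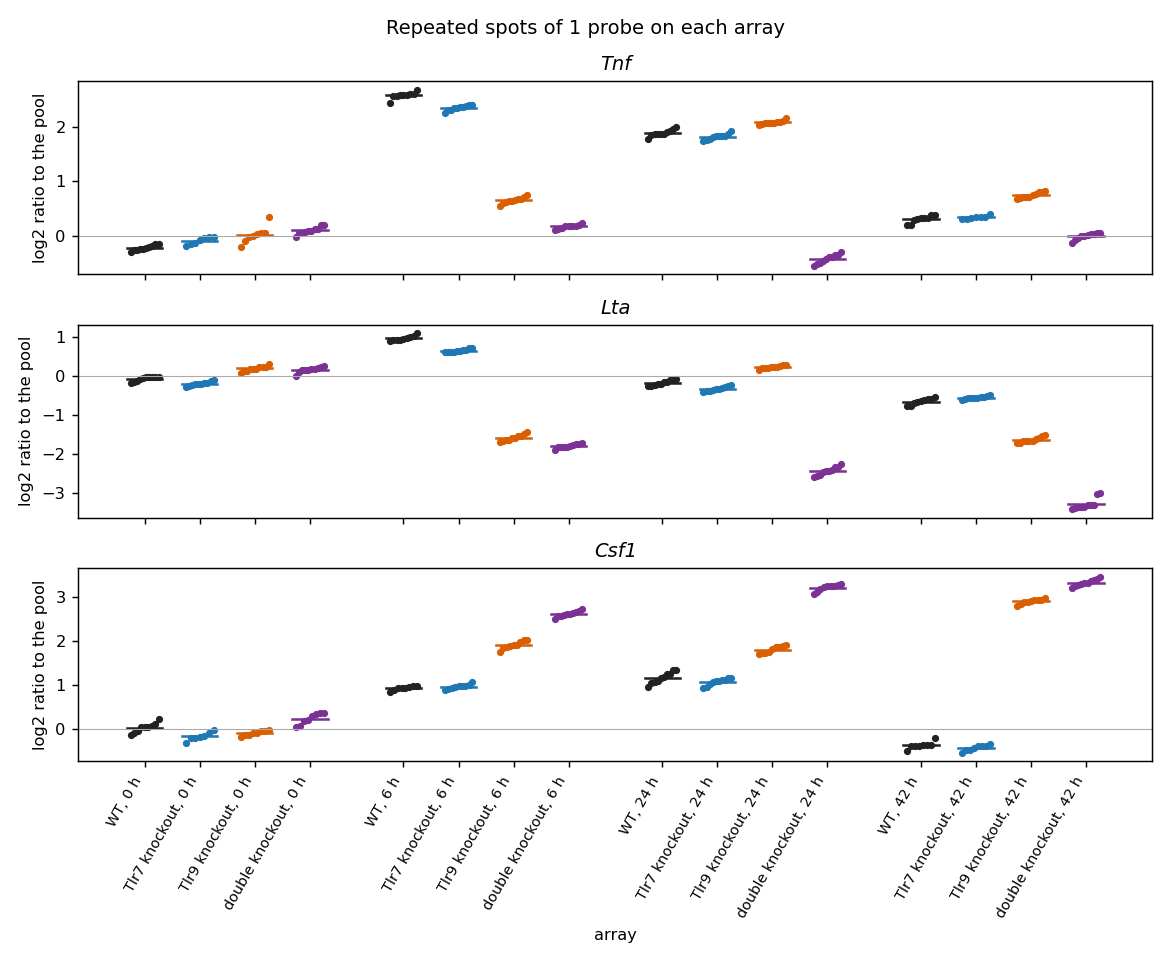
Log2 ratio to the pool (y axis) of every usable spot of the Tnf, Lta and Csf1 probes on each of the 16 arrays (x axis), with the mean of the spots as a bar. Spots show technical spread within an array and no spread between samples. Csf1 spots ran from 3.06 to 3.27 in the double knockout at 24 h and from 1.69 to 1.91 in the Tlr9 knockout, while WT and Tlr7 knockout spots overlapped at 6 h.

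The other Csf1 probes were dimmer. The probe at chr3:107548521-107548580 was above background on 8 arrays and the overlapping one at chr3:107548550-107548609 on 7, and both are annotated to another RefSeq transcript of the gene than the brightest probe. In the double knockout the first read 0.76, 2.40 and 2.90 at 6, 24 and 42 h, and the second 0.60, 2.07 and 2.53. In the Tlr9 knockout they read 0.39, 0.99 and 1.53, and 0.11, 0.85 and 1.60. On both, the double knockout was highest and the Tlr9 knockout second at 24 and 42 h, as on the brightest probe. The fourth probe, chr3:107553659-107553718, was above background on 1 array and ranged only from -0.11 to 0.16.

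**Figure D3:**
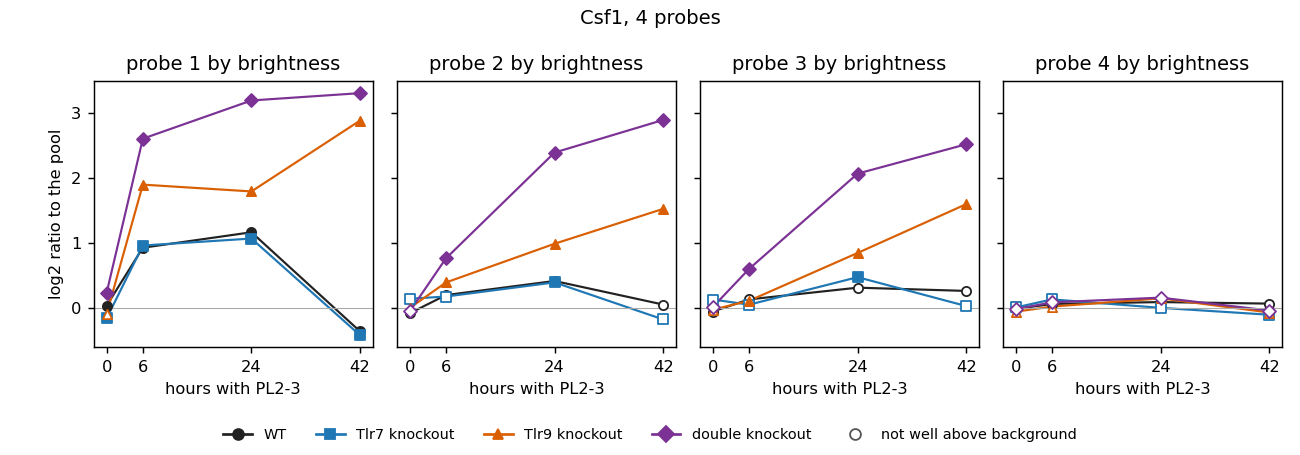
Log2 ratio to the pool (y axis) against hours with PL2-3 (x axis) for each of the 4 Csf1 probes, ordered by brightness, 1 array per point. Open symbols mark arrays on which fewer than 0.5 of a probe's spots stood well above background. The 3 brighter probes place the double knockout highest at 24 and 42 h, and the fourth stays between -0.11 and 0.16.

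Il10 and Il12a were at background throughout. Of the 160 Il10 spots (chr1:132920943-132921002 on mm9, plus strand), 3 stood above background, all at 6 h (2 on the Tlr7 knockout array, 1 on the Tlr9 knockout array). Its ratios stayed between -0.08 and 0.13. The single Il12a spot (chr3:68502346-68502405 on mm9, plus strand) was above background on 0 of 16 arrays, with ratios between -0.09 and 0.24. Ratios at background carry no order, and neither gene was tested. The array therefore reads the Ebi3 chain without a signal for the p35 chain, and this does not show that Il12a RNA was absent.

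Over WT, Tlr7 knockout and Tlr9 knockout together, the mean change from 0 h is given for the 6 genes that were tested (limma over 12 arrays, with the genotypes standing in for replicates, n = 3). For Il6 it was 1.03 ± 0.29 (SE) at 6 h, 2.52 ± 0.29 at 24 h and 1.44 ± 0.29 at 42 h. For Tnf it was 1.96 ± 0.41, 2.03 ± 0.41 and 0.56 ± 0.41, and for Ebi3 1.36 ± 0.43, 1.08 ± 0.43 and 1.30 ± 0.43. Ltb had -4.20 ± 0.33, -3.89 ± 0.33 and -2.85 ± 0.33. Lta had 0.04 ± 0.52, -0.06 ± 0.52 and -0.92 ± 0.52, and Csf1 1.34 ± 0.55, 1.42 ± 0.55 and 0.77 ± 0.55. The wide errors of Lta and Csf1 come with genotypes that parted: without the Tlr9 knockout, the Lta change at 6 h was 0.95 and the Csf1 change at 42 h was -0.33. Since the members were chosen on these changes, nothing is read from the following counts. Past an adjusted p of 0.05 were 4 of the 6 at 6 h (3 higher, 1 lower), where 46.8% of all genes passed (22.9% higher, 23.9% lower). At 24 h it was 3 of 6 (2 higher, 1 lower) beside 48.8% (22.7% higher, 26% lower), and at 42 h 3 of 6 (2 higher, 1 lower) beside 38% (17.3% higher, 20.7% lower). The share of higher calls depends on the scaling: 49% of calls were higher at 6 h and 46.6% at 24 h, against 75.7% and 76.9% when arrays were centred on their median, and 45.6% at 42 h against 58.5%. Without WT and without the Tlr7 knockout, each of the 3 higher members at 6 h (Il6, Tnf, Ebi3) and both at 42 h (Il6, Ebi3) no longer passed.

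What each receptor added was examined by comparing genotypes over 6, 24 and 42 h, with time as a term (limma, 12 arrays, p adjusted over 22872 genes). In cells with neither receptor, Il6 and Lta were lower than in the other genotypes. Il6 averaged 0.14 in the double knockout (n = 3 arrays) against 1.67 in the others (n = 9), a difference of -1.54 ± 0.28 (SE, limma adjusted p = 0.0437), and Lta averaged -2.50 against -0.34, a difference of -2.16 ± 0.38 (limma adjusted p = 0.0437). These 2 of 6 tested genes stand beside 1.37% of all genes called, and 0.398% called lower. The genes were chosen with these arrays in view, so neither the p-values nor the count are independent support. Tnf differed by -1.51 ± 0.42 (limma adjusted p = 0.104), Ebi3 by -1.22 ± 0.35 (limma adjusted p = 0.111) and Csf1 by 1.94 ± 0.41 (limma adjusted p = 0.0592), none of which passed. Ltb differed by 0.05 ± 0.35, with a 95% interval from -0.75 to 0.85, and by -0.48 under median centring. For Il6, Tnf and Lta, 3 of 6, the highest double knockout array lay under the lowest array of the others, beside 1.75% of all genes whose groups did not overlap in either direction. For Il6 the groups overlapped in Cy5 alone, and for Lta under median centring.

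Both calls lay close to the threshold. Each was lost when any of the times was left out (limma adjusted p from 0.123 to 0.198), without WT (0.292 for both), without the Tlr7 knockout (0.331 for both) and with the processed signals or Cy5 alone, while the differences stayed between -1.88 and -1.13 for Il6 and between -2.49 and -1.97 for Lta whichever time or genotype was left out. Without the Tlr9 knockout, Tnf at -1.64 (limma adjusted p = 0.0362), Ebi3 at -1.64 (0.0245) and Csf1 at 2.49 (0.0114) passed as well, and the number of genes called went from 313 to 1811. In that fit the double knockout is alone on its slide, so its genotype and the slide cannot be told apart.

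With Tlr9 present, no difference was detected between cells with and without Tlr7. None of the 6 passed the limma test between the Tlr7 knockout and WT (0 at an unadjusted p under 0.05), beside 0.00437% of all genes called. The differences were 0.25 ± 0.34 for Il6, -0.09 ± 0.51 for Tnf, -0.13 ± 0.47 for Lta, -0.15 ± 0.43 for Ltb, -0.04 ± 0.50 for Csf1 and 0.00 ± 0.43 for Ebi3 (SE, n = 3 arrays each). The 95% intervals reached from -1.24 to 1.06 for Tnf and from -0.51 to 1.02 for Il6, so a difference of 2-fold remains within the error of these fits. On single arrays the 6 genes at 3 stimulated times gave 18 pairs, and the largest distance between the Tlr7 knockout and WT was 0.51 (Il6 at 6 h). None of these pairs lay 2-fold apart, beside 0.347% of all genes at 6 h, 0.171% at 24 h and 1.12% at 42 h.

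**Figure D4:**
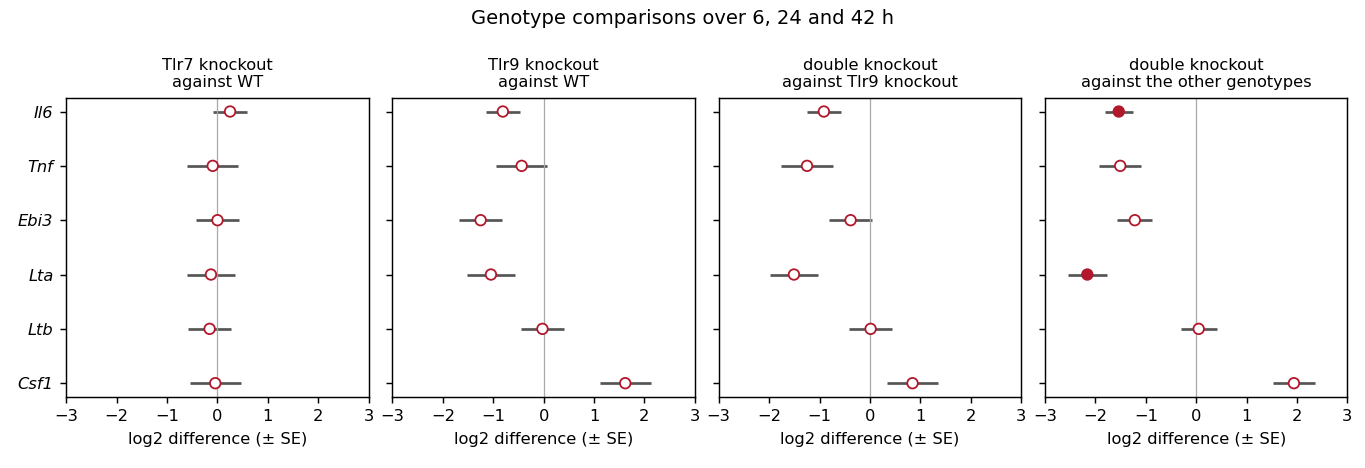
Log2 difference between genotypes over 6, 24 and 42 h (x axis, bars are SE) for the 6 tested genes (y axis) in 4 comparisons. Filled points passed a limma adjusted p of 0.05, which Il6 and Lta did in the double knockout against the other genotypes. Csf1 lies on the other side of 0 from Il6, Tnf, Ebi3 and Lta wherever the group named first lacked Tlr9.

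Averaged over the 3 times, the Tlr9 knockout differed from WT by up to 1.62 for these genes, and on single arrays by up to 3.25 (Csf1 at 42 h). None of the 6 passed the limma test over the 3 times after adjustment, beside 0.0568% of all genes called. At an unadjusted p under 0.05 there were 3 of 6, a count with no share of all genes beside it, so nothing is read from it. Csf1 differed by 1.62 ± 0.50 (limma adjusted p = 0.458), Ebi3 by -1.25 ± 0.43 (0.478), Lta by -1.05 ± 0.47 (0.541), Il6 by -0.81 ± 0.34 (0.517), Tnf by -0.44 ± 0.51 (0.839, and by 0.31 without the 6 h arrays) and Ltb by -0.02 ± 0.43 (0.993). Leaving out 1 time moved the difference to between 0.80 and 2.11 for Csf1, -1.87 and -0.72 for Ebi3, -1.77 and -0.29 for Lta, and -1.15 and -0.50 for Il6. For Csf1 and Ebi3 the groups did not overlap, 2 of 6 genes beside 7.34% of all genes. For Ebi3 the 24 h arrays met at 1.08 in both genotypes, and with the processed signals the groups overlapped. These genotypes lay on different slides.

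What Tlr7 adds where Tlr9 is missing was asked within 1 slide, double knockout against Tlr9 knockout. Lta differed by -1.51 ± 0.47, Tnf by -1.25 ± 0.51 and Il6 by -0.91 ± 0.34 (limma adjusted p = 0.817 for each), Csf1 by 0.85 ± 0.50 (0.824), Ebi3 by -0.38 ± 0.43 (0.89) and Ltb by 0.01 ± 0.43 (0.996). No member passed after adjustment, beside 0.0437% of all genes called. The 3 of 6 at an unadjusted p under 0.05 have no such share beside them, and nothing is read from that count. Leaving out 1 time moved the difference to between -2.15 and -0.93 for Lta, -1.63 and -0.62 for Tnf, and -1.32 and -0.26 for Il6. Il6, Tnf and Lta did not overlap between these genotypes, 3 of 6 genes beside 5.92% of all genes. For Il6 this rests on the Tlr9 knockout array at 6 h, which was not above background, and turned in Cy5 alone, and for Lta the groups overlapped under median centring. Whether the loss of Tlr7 acts differently with and without Tlr9 was tested as the difference of these 2 effects. It was -1.38 ± 0.67 for Lta, -1.17 ± 0.48 for Il6 and -1.16 ± 0.72 for Tnf. Limma called none of the 6 (adjusted p from 0.975 to 0.986), beside 0.0262% of all genes called. At an unadjusted p under 0.05 there was 1, with no share of all genes beside it. The change from 0 h in the double knockout less that in the others, added after the data were seen, was -2.35 ± 0.77 for Lta, -1.59 ± 0.55 for Il6 and 1.63 ± 0.82 for Csf1. It passed for none of the 6 (limma adjusted p from 0.571 to 0.976), beside 0.0385% of all genes called. The 2 at an unadjusted p under 0.05 also have no share of all genes beside them.

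Time by time, the Tlr9 knockout array stood nearer to a different neighbour. At 6 h it lay at least 2-fold from WT for 3 of 6 genes (Tnf by -1.94, Lta by -2.55 and Ebi3 by -2.30) and for 0 of 6 from the double knockout, beside 1.55% and 0.637% of all genes. At 24 h it lay 2-fold from WT for 0 of 6 and from the double knockout for 4 of 6 (Il6, Tnf, Lta and Csf1), beside 1.24% and 5.81%. At 42 h it lay 2-fold from WT for 4 of 6 (Il6, Ltb, Csf1 and Ebi3) and from the double knockout for 1 of 6 (Lta, where the double knockout was lower by -1.64), beside 5.63% and 1.52%. These are single arrays with no test, and the shares of all genes at least 2-fold apart changed between the times in the same order as the members did. Tnf and Lta were exceptions at 42 h, when the Tlr9 knockout differed from WT by 0.44 and -0.98. The double knockout differed from it by -0.76 and -1.64. Tnf then read 0.74 in the Tlr9 knockout, above WT at 0.30. Ltb was an exception at 24 h, at 0.77 from WT and 0.21 from the double knockout. At 24 h the difference of the Tlr9 knockout from WT had no settled sign for Tnf (-0.70 to 0.30 over the scalings), Lta (-0.48 to 0.45), Ebi3 (-0.97 to 0.04) and Ltb (-0.29 to 0.78).

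Over all 16 arrays the courses of Il6 and Ebi3 (Pearson r = 0.738), Il6 and Tnf (0.718) and Tnf and Ebi3 (0.679) were most alike among the tested genes, and Lta and Csf1 ran against each other (-0.731). Among 18939 genes above background on at least 8 arrays, the courses most like that of Il6 were Fut8 (0.97), Tex30 (0.958) and Haus6 (0.952). Rhbdl3 (0.959) and Epb41l5 (0.934) were nearest to Tnf, Rab43 (0.918) and Cdkn2b (0.898) to Ebi3, and Prag1 (0.893) to Lta. Krt79 (0.963) and Dzip1 (0.962) were nearest to Csf1. Trp53i11 (0.991), Traf5 (0.988) and Grk2 (0.987) were nearest to Ltb. These values describe 16 arrays that share the reference pool and the sampling times.

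The receptors of these cytokines, tested over the 3 genotypes with at least 1 receptor, fell more often than they rose, though under median centring the counts were 3 higher and 4 lower at 6 and 24 h. Of 12 receptor chains, 2 rose and 6 fell at 6 h, 2 rose and 6 fell at 24 h, and 1 rose and 6 fell at 42 h (limma adjusted p under 0.05). Over all genes tested, 22.9% rose and 23.9% fell at 6 h, 22.7% and 26% at 24 h, and 17.3% and 20.7% at 42 h, which is the background for each list that follows. The receptors had medians of -0.38, -0.50 and -0.44 beside about 0 for all genes (-0.003, 0.006 and -0.003). Il10ra, the ligand-binding chain of the interleukin-10 receptor, fell by 3.66 ± 0.28 at 6 h, 2.48 ± 0.28 at 24 h and 1.56 ± 0.28 at 42 h on the log2 scale. Csf1r, the receptor of CSF1, fell by 3.36 ± 0.26, 3.30 ± 0.26 and 2.67 ± 0.26. Il27ra, a receptor chain for the interleukin-27 that EBI3 helps form, fell by 1.50 ± 0.22 at 6 h. Tnfrsf1b, the second receptor of tumour necrosis factor, rose by 1.56 ± 0.15 and Il6st, the signalling chain gp130 of the interleukin-6 receptor, by 1.06 ± 0.22 at 6 h. Il12rb1 rose later, by 1.79 ± 0.36 at 24 h and 1.53 ± 0.36 at 42 h. Csf1r also marks myeloid cells, whose list is given below.

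Among 18 partner subunits and related ligands, 13 could be tested. At 6 h 1 rose and 0 fell (1.27-fold as a lower bound for Il11), at 24 h 1 rose and 2 fell, and at 42 h 0 rose and 2 fell. Tnfsf14, or LIGHT, a relative of the lymphotoxins that binds the lymphotoxin-beta receptor, rose by 2.45 ± 0.56 at 24 h. Clcf1, a ligand of the interleukin-6 family, fell by 1.75 ± 0.30 at 24 h and 1.68 ± 0.30 at 42 h. Medians were 0.16, 0.07 and -0.003.

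Regulators of cytokine RNA and shedding gave 4 rises and 6 falls among 11 at 6 h, 1 and 6 at 24 h, and 0 and 7 at 42 h, with medians of -0.43, -0.71 and -0.62. Under median centring the counts were 4 and 2, 2 and 3, and 1 and 5, so the balance at 6 h turned. Zfp36l2 fell by 1.85 ± 0.22, 2.42 ± 0.22 and 2.38 ± 0.22, and Zfp36, which encodes tristetraprolin, a protein that speeds the decay of Tnf RNA, fell by 1.12 ± 0.13 at 6 h, 1.29 ± 0.13 at 24 h and 1.15 ± 0.13 at 42 h. Rhbdf2, which carries the TNF-releasing protease ADAM17 to the surface, fell by 1.06 ± 0.36, 1.95 ± 0.36 and 1.99 ± 0.36. Nfkbiz, a nuclear cofactor of NF-κB needed for Il6 transcription, rose by 0.94 ± 0.29 and Rc3h1, or Roquin, by 0.84 ± 0.11 at 6 h. Of 14 genes of IL-6, IL-10 and TNF signalling, 1 rose and 7 fell at 6 h, 1 and 10 at 24 h, and 1 and 6 at 42 h, with medians of -0.56, -0.68 and -0.40. The one that rose was Cflar, an inhibitor of caspase-8, by 2.46 ± 0.18 at 6 h, 1.43 ± 0.18 at 24 h and 0.56 ± 0.18 at 42 h. Among kinases, Jak1 and Map3k14 fell by 1.49 ± 0.16 and 1.19 ± 0.13 at 6 h.

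Transcription factors of IL-10 and IL-6 gave 5 rises and 3 falls among 11 at 6 h, 3 and 5 at 24 h, and 2 and 5 at 42 h, with medians of 0.39, -0.05 and -0.49. Under median centring the counts were 7 and 2, 4 and 3, and 3 and 3, so the balance at 24 h turned and that at 42 h was even. Bhlhe40, a repressor of Il10 in T cells, rose by 2.99 ± 0.18 at 6 h, 1.49 ± 0.18 at 24 h and 1.60 ± 0.18 at 42 h. Irf4, needed for plasma cell formation, rose by 2.60 ± 0.18 at 6 h and 0.94 ± 0.18 at 24 h, and Nfil3 by 1.26 ± 0.14 at 6 h. Spi1, which encodes PU.1, fell by 1.65 ± 0.18, 1.32 ± 0.18 and 1.11 ± 0.18. Under median centring the signalling list leaned down at 42 h alone, with 3 higher and 1 lower at 6 h, 2 and 2 at 24 h, and 0 and 2 at 42 h. The direction of every gene named from these lists was the same under each scaling.

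No gene of these 5 lists was called by limma between genotypes, out of 63 tested. At an unadjusted p under 0.05 there were 22 in the double knockout against the others, 9 in the Tlr9 knockout against WT, 2 in the double knockout against the Tlr9 knockout and 1 in the Tlr7 knockout against WT. The share of all genes at that unadjusted threshold is not given here, so nothing is read from these counts. Nearest to a call was Zfp36l1, a relative of Zfp36, which averaged 0.10 in the double knockout and -1.02 in the others, a difference of 1.12 ± 0.22 (limma adjusted p = 0.052).

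Cells other than B cells can carry several of these cytokines, so their markers were read on the same arrays. No marker was called between genotypes by limma out of 47 tested (14 at an unadjusted p under 0.05 in the double knockout against the others). The share of all genes at that unadjusted threshold is not given here, so nothing is read from the 14. The mean of 12 tested myeloid markers lay between -1.70 and -1.31 in the stimulated double knockout and between -1.73 and -1.12 in the other stimulated arrays, and between -0.33 and 0.06 at 0 h. That of 9 T cell markers lay between -0.40 and -0.22 against -0.45 and -0.14, and that of 10 NK and plasmacytoid dendritic cell markers between -1.29 and -0.88 against -1.52 and -0.85. The 8 B cell markers averaged -2.30 to -1.30 in the stimulated double knockout and -2.58 to -1.50 in the others, and 8 erythroid markers -2.55 to -1.83 and -2.70 to -1.06. The macrophage markers Adgre1 and C1qa were above background on 15 arrays each and the T cell marker Cd3e on all 16, so the cells were not free of RNA of other types. Itgam, a myeloid marker above background on all 16 arrays, averaged 0.10 in the stimulated double knockout and -0.83 in the others. This was a difference of 0.93 ± 0.29 (limma adjusted p = 0.132), in the same direction as Csf1. The 12 tested myeloid markers had a median difference of -0.14, in the other direction. C1qa (-2.80 against -2.64), Lyz2 (-1.60 against -1.23) and Cd14 (-1.46 against -1.34) were lower in the double knockout, and Adgre1 (-0.27 against -0.39) was higher. Cd8a was above background on 0 of the 12 stimulated arrays. The ranges of every list overlapped between the double knockout and the others, and the part of other cells in the cytokine signals was not tested.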

How the data were processed

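Expression was measured on 16 arrays of 2 colours, 1 per genotype and time. Agilent Feature Extraction 10.1.1.1 made the files from the scans, per the file headers, and probes are placed on mm9. The deposited intensity columns hold each spot's mean foreground and median local background as scanned, and processed signals that the software background-subtracted, detrended and dye-normalized. Per the file headers other columns are flags, such as well above background. The authors' series table, in log10, held the ratio of the processed signals and was used only as a check of direction.

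From the unprocessed intensities, log2 ratios of Cy5 to Cy3 were computed in R 4.3.3 with limma 3.58.1 (normexp with an offset of 50, loess within each array). Outlier spots were set to missing and the spots of a probe averaged. A gene was read by its brightest probe, counted as above background where at least 0.5 of its spots were (with 2 spots, 1 suffices), and tested where, of the arrays compared, 3 or more had it above background in Cy5 or Cy3. Tests were those of lmFit with eBayes (2-sided), and p-values were adjusted by Benjamini-Hochberg across every gene tested, with 0.05 as the threshold. Responses used the 12 arrays of the genotypes other than the double knockout, genotype being a term, and genotype comparisons the 12 arrays after PL2-3, time being a term. Lower bounds on folds were taken in Cy5 after Aquantile, against the higher of the array's background level and the dim probe's own signal. The p-values measure how far genotypes or times disagreed on single arrays, not the spread between mice. Precision is limited by how few arrays there are.

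The rule named all 8 cytokine genes with every probe, the 5 genes most like each (of which the first 1 to 3 with a symbol are given), and at most the 3 largest calls per direction of each list. Genes, lists and tests were chosen with earlier results of these data known. Zfp36l1 and the markers named singly were picked after their values were seen. Alternatives were median centring, the processed signals, Cy5 alone, no filter on dim probes, other sets of arrays and other Csf1 probes. The exon or UTR under a probe was not determined, as no mm9 annotation was used here.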

Additional observations from a re-analysis of the deposited data

How the results depend on the processing

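Among comparison values of the 6 tested cytokine genes recomputed under each alternative, 289 kept their direction or lay within the residual spread on the same side of the threshold. Another 32 lost a call, 16 gained one, 4 moved across 0 without a call and 1 reversed: the Csf1 change at 42 h was -0.33 without the Tlr9 knockout and 1.36 without WT, against 0.77. Ebi3, not called at 24 h, lost its calls at 6 and 42 h with the processed signals or Cy5 alone. The cause was not tested.

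The number of genes called at 42 h ran from 4129 (without Tlr7 knockout) to 9903 (without Tlr9 knockout), and was 5069 without WT, against 8512. For the double knockout against the others it was 313, and 61 with median centring, 4 with processed signals and 6 with Cy5 alone. Leaving out a time or genotype gave 0 to 1811 genes: 0 without 24 h (2010 at an unadjusted p under 0.05, limma), 4 without 6 h, 20 without 42 h, 7 without WT, 5 without Tlr7 knockout and 1811 without Tlr9 knockout. The last of these leaves the double knockout alone on its slide. In the main fit of this comparison the share called higher was 70.9%, against 16.4% with median centring, 50% with processed signals and 16.7% with Cy5 alone. For Tlr9 knockout against WT, 13 became 37 with median centring and 5 with processed signals, and 4 to 16 with a time left out. For double knockout against Tlr9 knockout, 10 became 6 under each of these and Cy5 alone, 3 with only their own arrays, and 5 to 6 with a time left out. For Tlr7 knockout against WT, 1 became 3 with only their own arrays and stayed 1 with any time left out. Median centring moved the median of all genes by 0.23 at 6 and 24 h, -0.14 for the double knockout and -0.28 for Tlr9 knockout against WT. No paired analysis by replicate number was possible because each group has 1 array, and genotype or time was a term in each fit. Dim signal limits Il6, Il10, Il12a and the dimmer Csf1 probes.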
